A study of Mus musculus with 59 samples.

Results

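The genes described here are 2 glucose transporters, Slc2a1 and Slc2a4, and 7 enzymes of glycolysis and lactate formation, Hk1, Hk2, Pfkm, Pgk1, Eno3, Ldha and Ldhb, in left ventricle from a mouse model of myocardial infarction. Every probe set annotated to exactly 1 of these genes was taken, which gave 12 probe sets for 9 genes among 12488 probe sets on the array. Of the 8251 genes with a probe set of their own, 6670 passed a filter on dim signal and were tested, and all 9 genes were among them through their brightest probe set. The 59 arrays, 1 RNA sample each, comprised 18 of infarcted ventricle (taken between the left anterior descending coronary artery and the apex), 18 of remote ventricle of infarcted hearts (above that artery), 5 of the lower and 18 of the upper ventricle of sham-operated mice. Infarcted, remote and upper sham tissue were each sampled in 3 mice at 1, 4, 24 and 48 h, 1 week and 8 weeks after surgery. Lower sham tissue was sampled in 1 mouse at each time except 8 weeks. Unless stated otherwise, sham means the upper region, the control that the submitters intended for infarcted as well as remote tissue. It lies above the artery and the infarcted tissue below it, so infarct against sham also sets 2 levels of the ventricle side by side.

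The sources used here do not give strain, sex, age, the way the infarct was made or any pooling of mice. The number in each sample's title was taken as the mouse, since 17 infarct samples share it with a remote sample of the same time. From 1 to 48 h the numbers of infarcted and sham mice fall in separate ranges, so infarction cannot be told apart there from sets of mice handled apart. At 1 week and at 8 weeks the ranges overlap. Numbers also go with time: those of 1 week and of 8 weeks lie apart from each other and from all others. In infarcted mice each time has a range of its own. Differences between these times thus cannot be told apart from sets of mice handled apart. The values of a group are listed in the order of these numbers throughout, so the first, the second and the third value belong to the same mice for every gene, and infarct and remote values in the same place belong to the same heart except for the third at 24 h. Nothing in the labels says whether the 3 samples of a group were processed apart beyond coming from differently numbered mice. Unless stated otherwise, p-values measure the spread among samples within groups, taken for each gene over all 23 groups together.

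Cells take up glucose through facilitative transporters: GLUT1, encoded by Slc2a1, serves basal uptake in most cells, whereas GLUT4, encoded by Slc2a4, is the transporter that insulin and contraction bring to the surface of heart, skeletal muscle and fat cells. Glycolysis then turns glucose into pyruvate, and lactate dehydrogenase interconverts pyruvate and lactate. Several steps have one gene used mainly in muscle and another used widely, and the adult heart normally draws most of its energy from fatty acids, with glycolysis gaining weight when oxygen is short. Hypoxia-inducible factor (HIF), a regulator stabilised when oxygen is low, binds DNA at the core sequence ACGTG, and Slc2a1, Pgk1 and Ldha are textbook targets of it.

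Promoter windows were set beside the expression data for that reason. Each runs from 250 bases before to 50 bases after an annotated start, taken from RefSeq on build GRCm38.p6, and was searched for ACGTG on both strands, where it reads CACGT on the other strand and where the palindrome CACGTG counts on both. The motif stood in 19.6% of all 32851 such windows and in 21.8% of 27025 genes with a window. Of 13 windows for 8 of the 9 genes (all but Slc2a4), 7 held it (53.8%), in 6 genes. Windows are printed for Slc2a1 and Pgk1, whose probe sets were highest in infarct at 24 h, for Ldha, which stayed within the sham range through 48 h, and for Hk2, Ldhb and Eno3, 3 of the genes that were lowest in infarct at 1 week. Letters run 5′ to 3′ along the gene's strand, and capitals mark ACGTG or CACGT.
Slc2a1, chr4:119108495-119108794, plus strand: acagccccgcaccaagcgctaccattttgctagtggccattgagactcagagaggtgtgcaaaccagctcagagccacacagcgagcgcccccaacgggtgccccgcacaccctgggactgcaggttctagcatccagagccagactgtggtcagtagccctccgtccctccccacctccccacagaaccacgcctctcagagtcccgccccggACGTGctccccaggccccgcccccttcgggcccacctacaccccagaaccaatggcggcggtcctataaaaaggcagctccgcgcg
Pgk1, chrX:106186850-106187149, plus strand: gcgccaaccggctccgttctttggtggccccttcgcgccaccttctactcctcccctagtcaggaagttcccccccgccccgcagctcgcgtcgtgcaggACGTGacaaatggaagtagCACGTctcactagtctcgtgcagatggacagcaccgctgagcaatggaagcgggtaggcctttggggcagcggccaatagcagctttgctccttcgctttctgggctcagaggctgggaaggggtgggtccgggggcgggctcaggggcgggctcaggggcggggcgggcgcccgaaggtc
Ldha, chr7:46845554-46845853, plus strand: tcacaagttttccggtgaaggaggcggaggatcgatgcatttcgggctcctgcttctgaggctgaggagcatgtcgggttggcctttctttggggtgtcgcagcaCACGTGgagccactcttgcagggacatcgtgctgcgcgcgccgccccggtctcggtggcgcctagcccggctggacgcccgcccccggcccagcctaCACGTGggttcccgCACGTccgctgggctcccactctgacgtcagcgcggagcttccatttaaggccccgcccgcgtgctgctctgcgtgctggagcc
Hk2, chr6:82774405-82774704, minus strand: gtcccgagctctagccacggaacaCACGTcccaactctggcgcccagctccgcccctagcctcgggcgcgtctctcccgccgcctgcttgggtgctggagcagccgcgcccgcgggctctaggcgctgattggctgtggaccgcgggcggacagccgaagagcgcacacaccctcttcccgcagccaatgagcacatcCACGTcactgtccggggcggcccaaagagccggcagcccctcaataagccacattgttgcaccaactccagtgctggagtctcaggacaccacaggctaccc
Ldhb, chr6:142507908-142508207, minus strand: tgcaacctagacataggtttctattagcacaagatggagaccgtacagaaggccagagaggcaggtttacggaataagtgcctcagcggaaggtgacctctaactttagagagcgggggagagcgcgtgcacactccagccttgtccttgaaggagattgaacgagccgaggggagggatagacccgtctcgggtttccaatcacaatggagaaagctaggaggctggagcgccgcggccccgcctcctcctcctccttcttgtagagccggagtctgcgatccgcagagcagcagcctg
Eno3, chr11:70656926-70657225, plus strand: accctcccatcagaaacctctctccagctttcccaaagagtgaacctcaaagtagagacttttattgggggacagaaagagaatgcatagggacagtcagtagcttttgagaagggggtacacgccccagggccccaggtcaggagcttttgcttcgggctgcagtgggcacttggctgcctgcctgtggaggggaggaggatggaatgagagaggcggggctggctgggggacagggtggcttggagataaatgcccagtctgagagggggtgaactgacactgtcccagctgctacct
The Slc2a1 window has 1 match and the Pgk1 window 2. In the printed Ldha window 3 separate sites, 2 of them palindromes, make 5 matches. The Hk2 window holds 2 matches. The Ldhb and Eno3 windows have none of these letters, which says nothing about the factor beyond these 300 bases. Hk1 and Ldha each have the motif in 1 of 2 windows, and Pfkm in 2 of its 4. Genes with the motif and genes without it were thus both among those lowest in infarct at 1 week: Hk2, Pfkm and Ldha hold it, and Ldhb and Eno3 do not. A match is a description of the sequence and not a measured binding site.

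In infarcted tissue the 9 genes moved in 3 ways. Slc2a1 from 24 h to 1 week, Hk1 from 48 h on and Pgk1 at 24 and 48 h were higher than in sham. Slc2a4, Pfkm, Eno3, Ldhb and Hk2 fell to their lowest levels at 1 week. Ldha stayed within the sham range until 48 h and was lower at 1 week and 8 weeks. Quantile normalization ended both of these Ldha calls and added a higher one at 48 h. With limma's moderated t-statistic and Benjamini-Hochberg adjustment over all 6670 genes, a gene was called at an adjusted p under 0.05. At 1 h none of the 9 genes was called against sham (1 had an unadjusted p under 0.05), where 6.78% of all genes were. The count was 1 of 9 at 4 h, against 11.9% of all genes, 6 of 9 at 24 h, against 42.6%, and 8 of 9 at 48 h, against 50.9%. At 1 week all 9 genes were called, 2 higher (34.9% of all genes) and 7 lower (25.7% of all genes), where 60.5% of all genes were called in either direction. At 8 weeks 6 of 9 were called, against 21.1%. Infarct and sham arrays did not overlap for 6 of 9 genes at 24 h (46.9% of all genes), 8 at 48 h (58.5%), 8 at 1 week (69.1%) and 5 at 8 weeks (34.3%). Over the 6 times there were calls in 30 of 54 gene and time pairs, 55.6%, where all genes gave 32.3%.

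These are tissue samples, so fewer cells of a type and less RNA per cell cannot be told apart. Of 17 cardiac muscle markers tested, among them Myh6 and Tnni3, which encode a myosin heavy chain and troponin I of heart muscle, 1 was lower than sham in infarct at 24 h, 13 at 48 h, 16 at 1 week and 1 at 8 weeks, with median log2 changes of -0.32, -0.94, -2.42 and -0.45. Of all genes, 24%, 25.8% and 25.7% were lower at 24 h, 48 h and 1 week. At 8 weeks 21.1% were called in either direction. The summed intensity of the cardiac muscle markers at 1 week was 28865 to 113467 in infarct and 208961 to 262225 in remote tissue, against 283451 to 330164 in sham. Infarct sums also lay below sham at 24 h, with 223477 to 245866 against 275289 to 326827. The same held at 8 weeks, with 191533 to 274519 against 309350 to 317247, although only 1 marker was called at each of these 2 times. No marker of any of the cell type lists was at 0 on any infarct, remote or sham upper array. Macrophage markers were called higher in 13 of 13 cases in infarct at 1 week and in 13 of 13 in remote tissue, with summed intensities of 43283 to 48919 and 21619 to 32657, against 4706 to 6121 in sham. Of 13 fibroblast and matrix markers 11 were higher and 1 lower in infarct at 1 week, and 11 were higher in remote tissue, with summed intensities of 91795 to 102320 and 87502 to 103689, against 27337 to 29834 in sham. At 1 week 34.9% of all genes were higher and 25.7% lower in infarct, and 20.7% were higher in remote tissue. Of 12 neutrophil markers 8 were higher in infarct at 24 h and 7 at 48 h, against 18.6% and 25.1% of all genes. The part of these cell types in the changes of the 9 genes was not tested.

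**Figure D1:**
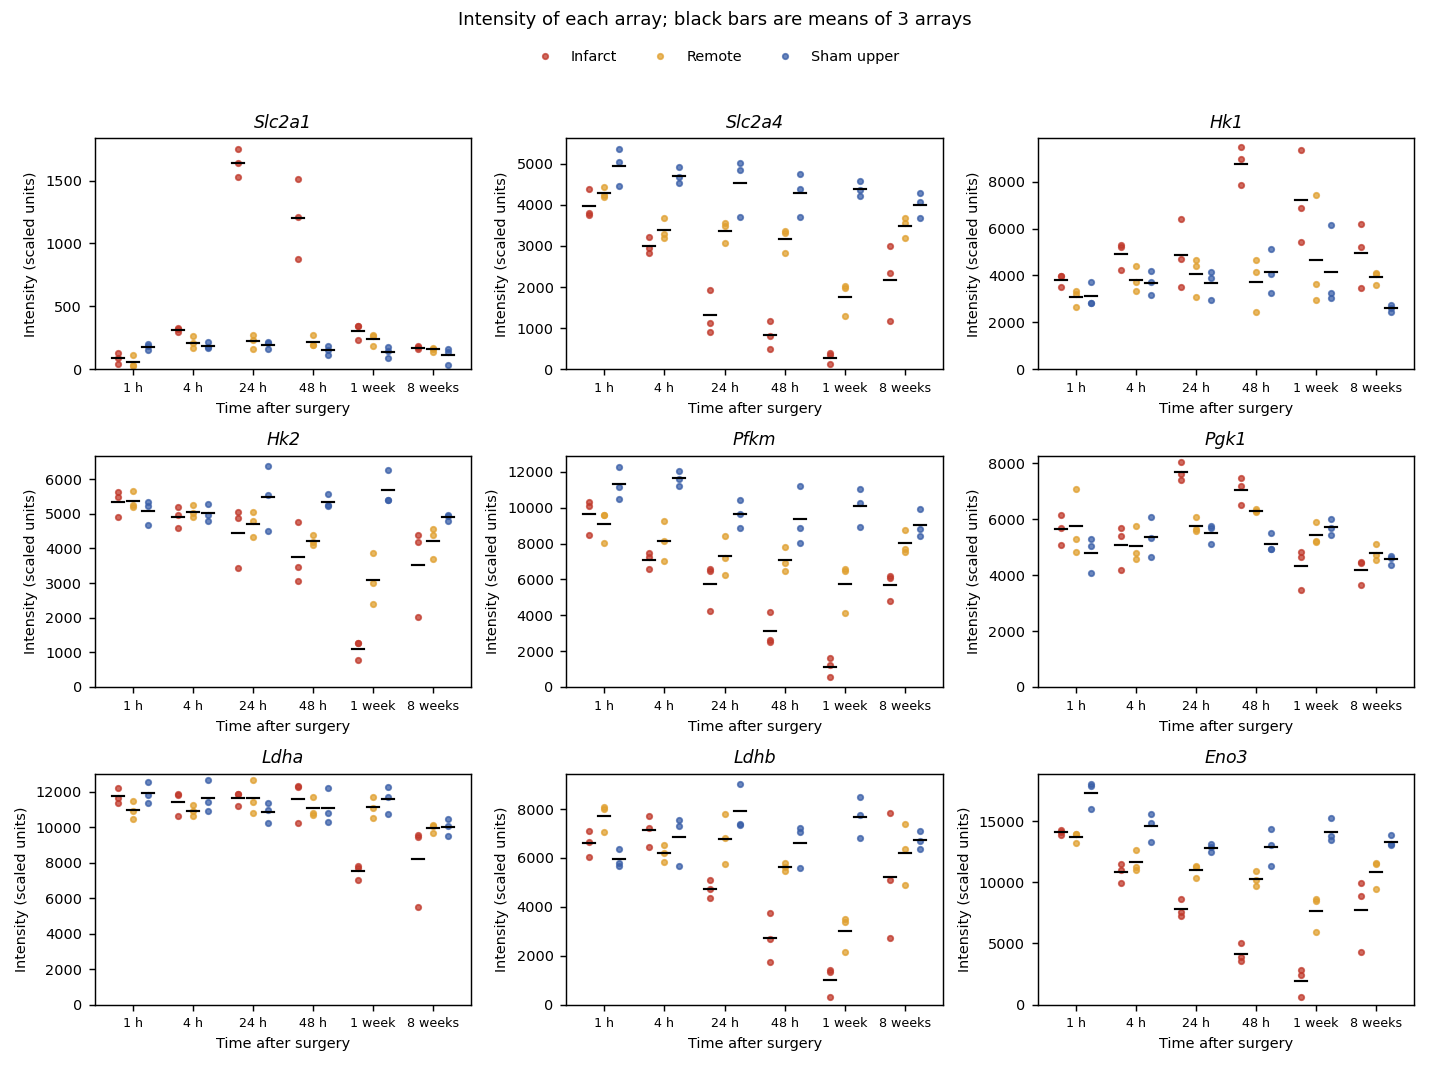
Intensity of the brightest probe set of each gene (vertical axis, arbitrary units, own scale per gene) at the 6 times after surgery, with 1 point per array and a black bar at the mean of 3 arrays, for infarct, remote and sham tissue. The 3 infarct arrays of Slc2a1 at 24 h lie between 1527 and 1748, above every sham array (37 to 217), and those of Slc2a4 at 1 week lie between 122 and 402, below every sham array (3676 to 5350).

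Slc2a1 (chr4:119108745-119137330, GRCm38.p6) had the largest rise of the 9 genes. Its intensity was 1637, 1748 and 1527 in infarct at 24 h, against 211, 161 and 217 in sham, an 8.34-fold difference of the means. At 48 h the 3 infarct arrays read 875, 1212 and 1508, against 152, 189 and 118 in sham. Neither time had an infarct array within the sham range. On the log2(intensity + 45.6) scale, which understates changes of dim genes such as this one, the rise was 2.82 ± 0.27 (SE) at 24 h and 2.63 ± 0.27 at 48 h (limma, adjusted p = 2.61e-11 and 1.08e-10). At 1 week infarct still read 345, 349 and 234, against 147, 175 and 86.9 in sham, a change of 0.98 ± 0.27 (adjusted p = 0.0016). The 3 infarct arrays at 4 h, 319, 330.3 and 295, also lay above the 3 of sham, 217, 174 and 170.4, but that difference was not called (0.63 ± 0.27, adjusted p = 0.118).

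The earliest Slc2a1 values were low in the infarcted hearts. At 1 h the arrays read 45.5, 89.1 and 130.1 in infarct and 33.8, 114 and 26.1 in remote tissue, against 201, 186 and 155 in sham. Both regions lay wholly below sham, and 4 of these 6 arrays were under 108.2, the intensity used as the dim limit. Only the remote fall was called, at -1.22 ± 0.27 (adjusted p = 0.00353), with infarct at -0.80 ± 0.27 (adjusted p = 0.0591). A fit on the remote and sham arrays of that time alone lost the remote call. At 1 week remote tissue read 188, 267 and 271, a rise of 0.68 ± 0.27 over sham (adjusted p = 0.0402). That call was lost without the first or the third sham array or the second or the third remote array, with changes between 0.47 and 0.84 over the leave-one-out fits and adjusted p up to 0.227, and under quantile normalization (0.47, adjusted p = 0.193).

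Slc2a4 (chr11:69942286-69948216), the insulin-regulated transporter, moved the other way and had the largest fall. At 24 h infarct read 1122, 900.4 and 1941, against 5012, 4841 and 3713 in sham, and at 48 h 499.8, 824 and 1189, against 4378, 4750.2 and 3708. The changes were -1.81 ± 0.26 and -2.36 ± 0.26 (limma, adjusted p = 3.97e-07 and 8.68e-10). Its lowest values came at 1 week, with 402, 347 and 122 in infarct and 2030.2, 1978 and 1303 in remote tissue, against 4369.7, 4587 and 4224 in sham. Infarct, remote and sham arrays did not overlap at that time: the mean was 15.1 times lower in infarct (-3.85 ± 0.26, adjusted p = 1.08e-15) and 2.48 times lower in remote tissue (-1.32 ± 0.26, adjusted p = 0.000104). At 8 weeks infarct read 2995, 2353 and 1180.4, against 3676, 4059.6 and 4284 in sham, and the change of -0.96 (adjusted p = 0.00748) was no longer called without the third infarct array (-0.59, adjusted p = 0.147). Remote tissue differed from sham by -0.20 ± 0.26 at that time (adjusted p = 0.873).

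Hexokinase traps glucose in the cell as glucose 6-phosphate. Hk1 (chr10:62268855-62379920), the widely used form, was highest in infarct at 48 h, with 8972, 9481 and 7846, against 4047, 3263 and 5119 in sham, a rise of 1.09 ± 0.26 without overlap (limma, adjusted p = 0.000546). At 1 week it read 6875, 5405 and 9331 in infarct, against 6154, 3258 and 3022 in sham. Those groups overlap, because the first sham array exceeds 1 infarct array, and the rise of 0.83 ± 0.26 (adjusted p = 0.00582) was not called without the third sham array (0.64, adjusted p = 0.0543). At 8 weeks infarct read 6191, 5208 and 3469.7, against 2759, 2626 and 2465 in sham, higher by 0.87 ± 0.26 (adjusted p = 0.0147). The 8 week call was lost without the third sham array or the first or the second infarct array, at 0.70 to 1.11 over the leave-one-out fits and adjusted p up to 0.0685. In remote tissue no time was called, and the third remote array of 1 week alone, at 7408, stood above the other 17 remote arrays, which read at most 4641.

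Hk2 (chr6:82725025-82774454), the form typical of insulin-responsive muscle, was not called through 24 h and was lowest at 1 week. Infarct read 1281, 1265 and 782 and remote tissue 2410.0, 3859 and 2990.3, against 5396, 6269 and 5390.3 in sham, with no overlap among the 3 groups. The infarct mean was 5.13 times lower than the sham mean (-2.34 ± 0.19, adjusted p = 6.86e-14, limma) and the remote mean 1.84 times lower (-0.89 ± 0.19, adjusted p = 0.000205). At 48 h infarct read 3057, 3477 and 4764, against 5568, 5253 and 5213 in sham, a change of -0.52 (adjusted p = 0.0186) that was not called without the first sham array or the first or the second infarct array, at -0.71 to -0.39 over the leave-one-out fits and adjusted p up to 0.124, or under quantile normalization. At 8 weeks 2 infarct arrays, 4392 and 4186, lay close to sham, while the third read 2023, against 4797, 4943 and 4969 in sham. Without it the change of -0.55 (adjusted p = 0.0334) became -0.21 (adjusted p = 0.475); the call was also lost without any 1 of the 3 sham arrays.

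Pfkm (chr15:98092589-98132447), the muscle form of the phosphofructokinase that commits sugar to glycolysis, was the only 1 of the 9 genes called at 4 h, and in infarct none was called earlier. It then read 6606, 7446 and 7271 in infarct, against 11601, 12056 and 11226 in sham, without overlap (-0.71 ± 0.22, limma, adjusted p = 0.0241). The size of that fall held between -0.74 and -0.66 when single arrays were left out, but the call was lost without any 1 sham array or without the first or the second infarct array (adjusted p up to 0.0887). Infarct then read 4255, 6482 and 6567 at 24 h, against 10455, 9638 and 8856 in sham (-0.77 ± 0.22, adjusted p = 0.00348; -0.56 and adjusted p = 0.0527 without the first infarct array). At 48 h it was 2612, 2488 and 4187, against 11230.4, 8857 and 8030.2 in sham (-1.61 ± 0.22, adjusted p = 5.03e-08). The lowest level again came at 1 week. Infarct read 1599, 1239 and 543 and remote tissue 6455, 6553 and 4151, against 8948, 11042 and 10269.5 in sham, and the 3 groups did not overlap (-3.23 ± 0.22 in infarct, adjusted p = 6.81e-16; -0.84 ± 0.22 in remote tissue, adjusted p = 0.0019). At 8 weeks it averaged 5701 ± 772 in infarct, against 9042 ± 808 in sham (SD, n = 3 each), a change of -0.67 (adjusted p = 0.0236) that was not called without the third infarct array (-0.55, adjusted p = 0.133), without the third sham array, or under quantile normalization.

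Pgk1 (chrX:106187100-106203699) encodes phosphoglycerate kinase, the first step of glycolysis that forms ATP. It was highest in infarct at 24 h, with 8028, 7605 and 7383, against 5759.7, 5688 and 5108 in sham, and at 48 h it read 6509, 7196 and 7469.8, against 4949, 5490.1 and 4927. Infarct and sham arrays did not overlap at either time, and the rises were small in size, 0.47 ± 0.13 and 0.46 ± 0.13 (limma, adjusted p = 0.00263 and 0.00263). At 1 week the direction was the opposite, with 4654, 4834 and 3479 in infarct, against 5446, 6004 and 5669 in sham. That fall, -0.41 ± 0.13 (adjusted p = 0.00532), was not called without the third infarct array (-0.27, adjusted p = 0.0894) or under quantile normalization, which gave -0.08. Remote tissue was not called at any time.

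Eno3 (chr11:70653125-70662513) encodes the enolase subunit of adult muscle. It was lower in infarct at 24 h, with 7273, 7605 and 8630.0, against 12927, 12492 and 13114 in sham, and at 48 h, with 3871, 3552 and 5034, against 14389.5, 13019 and 11346. Both times were without overlap, at -0.72 ± 0.26 and -1.64 ± 0.26 (limma, adjusted p = 0.0256 and 1.70e-06). The 24 h call was lost without the first or the third sham array or the first or the second infarct array, at -0.79 to -0.66 over the leave-one-out fits and adjusted p up to 0.0736, and under quantile normalization. At 1 week Eno3 read 2417, 2855 and 607 in infarct and 8650.0, 8478 and 5908 in remote tissue, against 13786, 15241 and 13433 in sham, again 3 groups apart. The infarct change was -3.09 ± 0.26 (adjusted p = 3.55e-13), or -2.43 without the third array, whose 607 was far below the other infarct arrays. Remote tissue was lower than sham, at -0.90 ± 0.26 (adjusted p = 0.00624), a call lost under quantile normalization. At 8 weeks infarct read 9957, 8874 and 4289, against 13842, 13067 and 13104 in sham; the change of -0.88 (adjusted p = 0.0152) was -0.52 without the third infarct array and not called (adjusted p = 0.214), nor was it under quantile normalization.

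The subunits of lactate dehydrogenase separated. Ldha (chr7:46842274-46855627), the subunit that predominates in skeletal muscle and other glycolytic tissue, had no called change through 48 h. Its 12 infarct arrays from 1 to 48 h read 10245 to 12361, within the 9527 to 12672 of all 18 sham arrays. At 1 week infarct read 7730.1, 7829 and 7004, remote tissue 11121, 11739 and 10527 and sham 11734, 12299 and 10772. Infarct lay apart from both others and was lower than sham, at -0.62 ± 0.12 (limma, adjusted p = 1.49e-05); quantile normalization gave -0.13 and no call. At 8 weeks the third infarct array, at 5524, was far below the other infarct arrays, 9480 and 9556, against 10071, 9527 and 10493 in sham. Without it the change of -0.33 (adjusted p = 0.0371) became -0.08 (adjusted p = 0.634), and the call was also lost without the first or the third sham array and under quantile normalization.

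Ldhb (chr6:142490249-142507957), the subunit that predominates in heart, fell further. Infarct read 4358, 5091 and 4720.0 at 24 h, against 7400.1, 7359.9 and 9014 in sham, and 2670.0, 1747 and 3737 at 48 h, against 5576, 7213 and 7074. These non-overlapping differences were -0.75 ± 0.30 and -1.33 ± 0.30 (limma, adjusted p = 0.0388 and 0.000251). The 24 h call did not survive leaving out any 1 of its 6 arrays (-0.81 to -0.65, adjusted p up to 0.124), nor quantile normalization. At 1 week Ldhb read 1328, 1428 and 306 in infarct and 3519, 3357 and 2149.7 in remote tissue, against 6810.1, 7758 and 8495 in sham. All 3 groups were apart, with changes of -3.11 ± 0.30 in infarct (adjusted p = 6.37e-12; -2.47 without the third infarct array) and -1.37 ± 0.30 in remote tissue (adjusted p = 0.000298). At 8 weeks the 3 infarct arrays ranged from 2743 to 7852, against 6351 to 7092 in sham, and the change of -0.48 ± 0.30 was not called (adjusted p = 0.254).

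At 8 weeks, the third infarct array was the lowest of the group for Slc2a4, Hk1, Hk2, Pfkm, Pgk1, Eno3, Ldha and Ldhb. Of the 6 calls of that time, 5 were lost without it, and all 6 were lost in fits restricted to the infarct and sham arrays of that time. The summed fat cell markers of the infarct arrays spread from 1742 to 8796 at 8 weeks, against 1628 to 1871 in sham, and their part in these values was not tested.

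**Figure D2:**
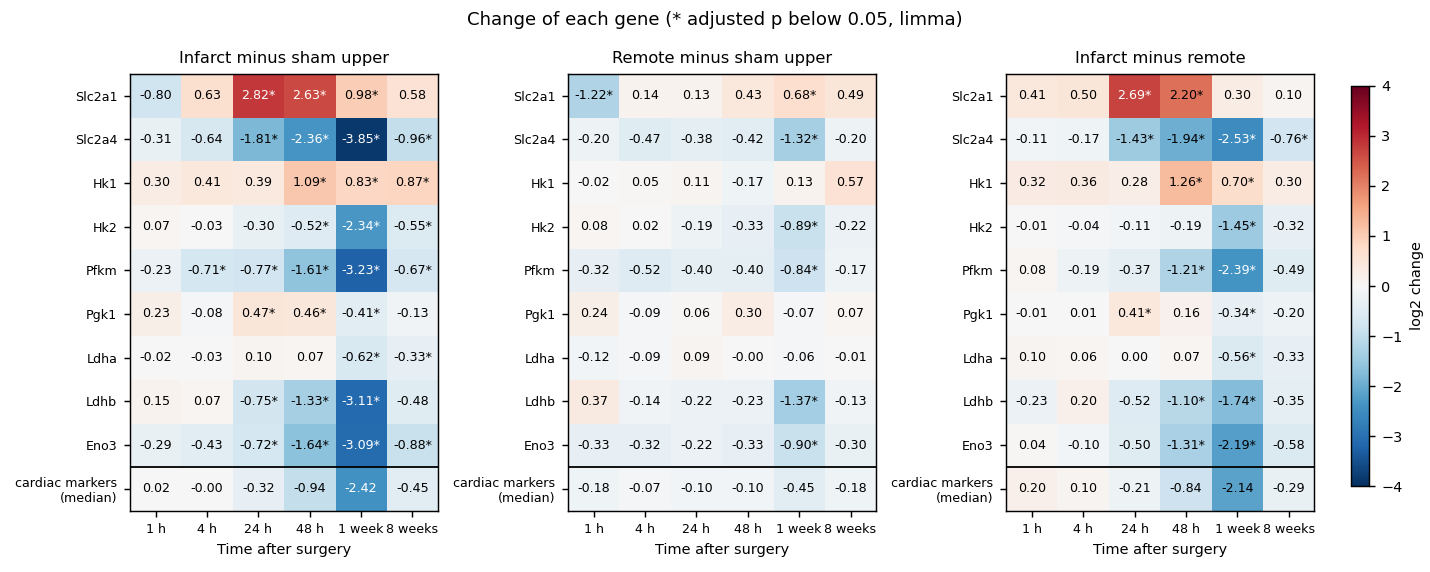
Log2 change of each gene (rows) at the 6 times (columns), printed in each cell and shown by its colour (red higher, blue lower), for infarct against sham, remote against sham and infarct against remote, with an asterisk at an adjusted p under 0.05 and the median of the cardiac muscle markers in the bottom row. In the infarct against sham panel Slc2a1 reads 2.82 at 24 h, while Slc2a4, Pfkm, Ldhb and Eno3 read between -3.85 and -3.09 at 1 week and between -0.96 and -0.48 at 8 weeks.

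Whether the infarct change differed between times was tested with limma's F-statistic on the 5 differences between times. It was called for 8 of the 9 genes, against 64.7% of all genes; Hk1 was the exception (adjusted p = 0.244). For the remote change the same test was called for 3 of 9, Slc2a1, Hk2 and Ldhb, against 27.9% of all genes. Sham tissue itself gave no call between times for any of the 9 genes (limma; none had an unadjusted p under 0.05), where 20.4% of all genes were called. The lower sham region, paired with the upper region of the same 5 mice, gave no call for any gene on the array (0% of all genes; 961 of 6670, 14.4%, had an unadjusted p under 0.05 in limma). Among the 9 genes Hk1 was highest in the lower region relative to the upper, at 0.31 ± 0.11 (limma, unadjusted p = 0.0215, adjusted p = 0.282). Infarcted tissue also lies at the lower level, and the part of position in the Hk1 rises in infarct was not tested.

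Remote tissue was followed because it was cut from the same region of the ventricle as sham. Its comparison and that of infarct share the sham arrays. Of the 9 genes, 1 was called in remote tissue at 1 h (Slc2a1, lower), where 8.02% of all genes were, and 6 at 1 week, where 38.4% were. At 1 week these were 1 higher (20.7% of all genes), Slc2a1, and 5 lower (17.7%), Slc2a4, Hk2, Pfkm, Ldhb and Eno3. None of the 9 genes was called in limma at 4 h (1.74% of all genes), 24 h (4.5%), 48 h (8.82%) or 8 weeks (0.12%), with 1, 0, 1 and 1 at an unadjusted p under 0.05. In total 7 of 54 gene and time pairs were called, 13.0%, against 10.3% over all genes. The 5 genes that fell in remote tissue at 1 week had log2 changes of -1.32 (Slc2a4), -0.89 (Hk2), -0.84 (Pfkm), -1.37 (Ldhb) and -0.90 (Eno3). In infarct at the same time the same genes, in the same order, had -3.85, -2.34, -3.23, -3.11 and -3.09. Of the 17 cardiac muscle markers 3 were lower in remote tissue at 1 week, near the 17.7% of all genes, with a median change of -0.45.

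Infarct was also set against remote tissue of the same hearts, except for the third at 24 h. This comparison too sets 2 levels of the ventricle side by side. No gene of the 9 was called at 1 h (5.08% of all genes) or at 4 h (1.42%), and none had an unadjusted p under 0.05 in limma. The count was 3 of 9 at 24 h (33.3% of all genes), 6 at 48 h (48.1%), 8 at 1 week (41.2%) and 1 at 8 weeks (6.49%), which made 18 of 54 pairs, 33.3%, where all genes gave 22.6%. Slc2a1 was higher in infarct than in remote tissue by 2.69 ± 0.25 at 24 h (adjusted p = 7.90e-11) and 2.20 ± 0.25 at 48 h (adjusted p = 2.18e-09), and its 1 week difference, 0.30 ± 0.25, was not called (adjusted p = 0.352). Slc2a4 was lower in infarct than in remote tissue, at -1.43, -1.94 and -2.53 at 24 h, 48 h and 1 week (adjusted p = 2.23e-05, 2.15e-08 and 7.13e-11). Its 8 week difference of -0.76 (adjusted p = 0.0485) was lost without the second or the third infarct array or any 1 remote array (-1.04 to -0.39, adjusted p up to 0.541) and in a fit of only those infarct and remote arrays (adjusted p = 0.349).

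Hk1 was higher in infarct than in remote tissue at 48 h (8972, 9481 and 7846 in infarct, against 4639, 4133 and 2451; 1.26 ± 0.24, limma, adjusted p = 3.58e-05). At 1 week its difference was 0.70 ± 0.24 (adjusted p = 0.018), lost without the third infarct array or the first or the second remote array (0.46 to 1.06, adjusted p up to 0.189) and in a fit of only those arrays. Hk2, Pfkm, Eno3 and Ldhb were lower in infarct at 1 week, at -1.45 ± 0.17, -2.39 ± 0.20, -2.19 ± 0.24 and -1.74 ± 0.27 (adjusted p = 1.07e-08, 4.18e-12, 2.07e-09 and 2.11e-06). Without the third infarct array the differences of Eno3 and Ldhb were -1.54 and -1.10 and still called. Pfkm, Eno3 and Ldhb were already lower at 48 h, at -1.21 ± 0.20, -1.31 ± 0.24 and -1.10 ± 0.27 (adjusted p = 3.39e-06, 2.55e-05 and 0.001). Pgk1 was higher in infarct by 0.41 ± 0.12 at 24 h (adjusted p = 0.00789; 0.0649 and no call in a fit of only those infarct and remote arrays) and lower at 1 week, at -0.34 ± 0.12 (adjusted p = 0.0194). The 1 week call of Pgk1 was lost without the third infarct array or the second remote array (-0.20 at most, adjusted p up to 0.251), in the fit of only those arrays, and under quantile normalization (-0.16, adjusted p = 0.287). Ldha was lower in infarct than in remote tissue at 1 week, at -0.56 ± 0.11 (adjusted p = 4.93e-05).

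At 3 steps the 9 genes hold a widely used and a muscle form, or subunits of 1 enzyme, and their ratio on the same array can be followed. The level of such a ratio has no meaning, since different probe sets are not comparable, and only its change between groups was used. The mean difference over the 6 times was tested with an exact two-sided permutation test that exchanged labels within each time (64000000 relabellings), adjusted over the 6 tests. The log2 ratio of Slc2a1 to Slc2a4 was higher in infarct than in sham by 2.79 on average (p = 3.1e-06, adjusted p = 9.4e-06 by that exact permutation test), higher at 5 of 6 times. By time it differed by -0.49, 1.28, 4.61, 4.99, 4.82 and 1.54. In remote tissue the mean difference from sham was 0.61 (adjusted p = 0.0091, exact permutation), with -1.02 at 1 h and 2.0 at 1 week.

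Hk1 over Hk2 was higher in infarct by 1.26 (adjusted p = 3.2e-06, exact permutation), at 6 of 6 times, with 0.23 at 1 h, 1.62 at 48 h, 3.17 at 1 week and 1.42 at 8 weeks. Its remote difference from sham was 0.38 (adjusted p = 0.0127, exact permutation) at 5 of 6 times, led by 1.02 at 1 week. Ldha over Ldhb was higher in infarct by 0.77 (adjusted p = 0.00082, exact permutation) at 4 of 6 times, with -0.17 and -0.09 at 1 and 4 h and 2.49 at 1 week, and 0.15 at 8 weeks. In remote tissue it was higher by 0.26 (adjusted p = 0.0371, exact permutation) at 5 of 6 times, with 1.31 at 1 week. That last result had adjusted p values up to 0.0609 when single arrays were left out and missed the threshold without the third sham array of 24 h or of 48 h, any 1 sham array of 1 week, the third remote array of 8 weeks, or the second or the third remote array of 1 week. A rise of such a ratio shows unequal change of its parts and not which part moved: for Ldha over Ldhb at 1 week both parts were lower in infarct, and Ldhb more so.

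**Figure D3:**
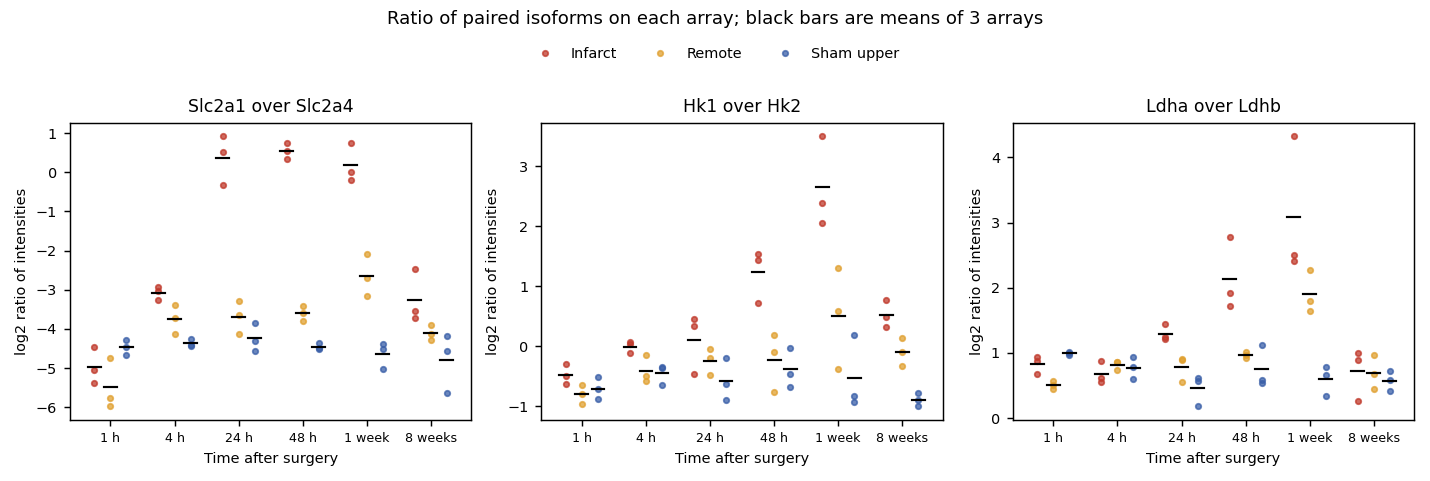
Log2 ratio of Slc2a1 to Slc2a4, Hk1 to Hk2 and Ldha to Ldhb on each array (vertical axis) at the 6 times, with a black bar at the mean of 3 arrays, for infarct, remote and sham tissue. Infarct exceeds sham by 4.61 to 4.99 for the transporters from 24 h to 1 week, and by 3.17 for the hexokinases and 2.49 for the lactate dehydrogenase subunits at 1 week.

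Ranked by mean intensity over the 18 groups of region and time, Slc2a1 was highest in infarct at 24 h and then at 48 h, and lowest in remote tissue at 1 h. Slc2a4, Hk2, Pfkm, Ldha, Ldhb and Eno3 were lowest in infarct at 1 week. Hk1 was highest in infarct at 48 h and lowest in sham at 8 weeks, Pgk1 was highest in infarct at 24 h and lowest in infarct at 8 weeks, and Eno3 was highest in sham at 1 h. Most groups next to each other in these orders did not differ beyond their arrays: of 17 neighbouring pairs, those without overlap were 4 for Eno3, 2 each for Slc2a1, Slc2a4, Pfkm, Pgk1 and Ldhb, 1 each for Hk2 and Ldha, and 0 for Hk1. The lowest, median and highest of the 18 sham arrays were 37, 166 and 217 for Slc2a1, 3676, 4490 and 5350 for Slc2a4, and 2465, 3261 and 6154 for Hk1. They were 4505, 5246 and 6389 for Hk2, 8030.2, 10362 and 12292 for Pfkm, and 4084, 5202 and 6083 for Pgk1. For Eno3 they were 11346, 13609 and 18028, for Ldha 9527, 11171 and 12672, and for Ldhb 5576, 7083 and 9014. Levels of different genes are not compared, because probe sets differ in response.

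Across the 23 group means (all regions and times, lower sham included), Slc2a4, Pfkm, Eno3, Ldhb and Hk2 varied together, with Pearson's r of 0.88 to 0.99 on the log2 scale. Slc2a1 and Slc2a4 varied in opposite directions (r = -0.63), and Pgk1 was nearly unrelated to Pfkm (r = -0.01). These points share arrays, scaling and mice and are given as a description. Outside the 9 genes, the closest patterns over those 23 means were Ndrg1 (r = 0.93) and Wfdc21 (0.91) for Slc2a1, Coq9 and Fem1a (0.99 each) for Slc2a4, and Bola2 (0.91) and Adam10 (0.89) for Hk1. For Hk2 they were Ech1 and Cox7a2 (0.96 each), for Pfkm the muscle glycogen phosphorylase gene Pygm and Vegfb (0.98 each), and for Pgk1 Jmjd6 (0.90) and Map2k3 (0.85). Ldha was closest to Csrp3 (0.83) and Cystm1 (0.81), Ldhb to Sdha (0.99) and Sod2 (0.98), and Eno3 to Ndufb10 and Ndufb9 (0.99 each). Csrp3 is a muscle structural protein gene, Cox7a2, Sdha, Ndufb10 and Ndufb9 encode respiratory chain subunits, and Ndrg1 is a known HIF target.

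The other genes of glucose metabolism were read at 1 week, the time with the most calls in most of the lists. Of 10 other glycolytic enzymes tested, 2 were higher and 6 lower in infarct, with a median log2 change of -0.76, beside 0.11 over all genes. For this and the following lists, 34.9% of all genes were higher and 25.7% lower in infarct at 1 week, and 20.7% were higher and 17.7% lower in remote tissue. Pgam2, the muscle phosphoglycerate mutase, read 1454, 1403 and 238 in infarct, against 7754, 9699 and 9894 in sham, a change of -3.42 ± 0.30 (limma, adjusted p = 6.24e-13), while Pgam1, the widely used form, read 3469, 3565 and 3661, against 874, 1749 and 1336 in sham (1.46 ± 0.18, adjusted p = 3.03e-09). The muscle and the wide form of this enzyme thus changed in opposite directions. Tpi1, triose phosphate isomerase, and Pklr, a pyruvate kinase, were lower (-1.11 ± 0.11 and -1.86 ± 0.59, adjusted p = 2.08e-11 and 0.00617), and Eno2, the enolase known from neurons, was higher (1.14 ± 0.17, adjusted p = 2.89e-07). In remote tissue 3 of these enzymes were higher and 2 lower at 1 week, among them Pfkp, a phosphofructokinase used widely (1.02 ± 0.25, adjusted p = 0.00101), Eno2 (0.96 ± 0.17, adjusted p = 2.45e-05), Pgam2 (-0.90 ± 0.30, adjusted p = 0.0155) and Tpi1 (-0.38 ± 0.11, adjusted p = 0.00614).

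Among 3 other hexose transporters tested, 1 was lower in infarct at 1 week. Slc2a3, encoding GLUT3, was higher in infarct at 24 h, with 125, 238 and 192, against 79.8, 112 and 74.0 in sham (0.76 ± 0.28, adjusted p = 0.0275). Gapdh has no probe set of its own among the tested genes, but the array's control probe set for the 3′ part of its transcript read 9574 to 12369 in infarct at 1 week, against 21063 to 23632 in sham. The ratio of 3′ to 5′ Gapdh control signals, a measure of RNA integrity, was 0.756 to 0.845 in infarct and 0.856 to 0.880 in remote tissue at 1 week, against 0.838 to 0.878 in sham. For the actin control the same ratio was 1.17 to 1.26 in infarct and 1.203 to 1.280 in remote tissue, against 1.30 to 1.76 in sham, so that it was lower without overlap in both regions at the time of most calls. The part of these ratios in the 1 week changes was not tested.

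Of 14 regulators of glycolytic flux tested, 1 was higher and 11 were lower in infarct at 1 week (median -1.39), and 1 was higher and 8 were lower in remote tissue (median -0.67). Pdk3 and Pdk4 encode kinases that switch off pyruvate dehydrogenase, and they moved in opposite directions. Pdk3 read 754, 732 and 1049 in infarct and 258, 249.6 and 389.2 in remote tissue, against 63.7, 61.2 and 61.2 in sham (limma, 3.03 ± 0.25 and 1.65 ± 0.25, adjusted p = 1.75e-13 and 1.98e-06). Pdk4 read 2484, 1399 and 810.0 in infarct and 9577, 3738 and 4552 in remote tissue, against 14376, 10239 and 10288 in sham (-2.98 ± 0.36 and -1.06 ± 0.36, adjusted p = 2.68e-09 and 0.018). Earlier, at 24 h, Pdk4 had been higher than sham in infarct (1.62 ± 0.36, adjusted p = 0.000328) and in remote tissue (1.71 ± 0.36, adjusted p = 0.00236). Sham was low at that time, with a mean of 4030 ± 2670 (SD), against 12773 at 4 h. The infarct mean was 11841 at 4 h and 11068 at 24 h, and the remote mean 14071 and 11810. At 1 h the means were 7525 in sham, 8672 in infarct and 9643 in remote tissue, and at 48 h sham was at 5789. The part of the low sham level in the 24 h difference was not tested. The pyruvate dehydrogenase subunit gene Pdhb and the muscle fructose bisphosphatase gene Fbp2 were lower in infarct at 1 week (-2.51 ± 0.16 and -2.57 ± 0.24, adjusted p = 3.45e-16 and 5.52e-12), and Fbp2 also in remote tissue (-1.43 ± 0.24, adjusted p = 1.17e-05).

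Most glycogen enzymes were lower. Of 12 tested in this list, 1 was higher and 11 were lower in infarct at 1 week (median -1.26), and 1 was higher and 5 were lower in remote tissue (median -0.35). Pygm, the muscle glycogen phosphorylase, read 1128, 1190.4 and 272 in infarct, against 8763, 10608 and 9708 in sham (-3.65 ± 0.28, limma, adjusted p = 1.20e-14). Pygb, the brain form, and Ppp1r3c, a subunit that brings a phosphatase to glycogen, were lower (-2.40 ± 0.16 and -1.80 ± 0.26, adjusted p = 8.92e-16 and 8.09e-08), while Pgm2, annotated as a phosphoglucomutase, was higher in infarct (2.0 ± 0.17, adjusted p = 1.65e-13) and in remote tissue (0.89 ± 0.17, adjusted p = 3.85e-05). Pygm and Phkg1, a catalytic subunit of phosphorylase kinase, were lower in remote tissue (-0.91 ± 0.28 and -0.93 ± 0.19, adjusted p = 0.00778 and 0.000181). In the pentose phosphate pathway, which branches off after hexokinase, 5 of 7 enzymes tested were higher in infarct (median 0.38), against 34.9% of all genes, and the others were not called. In remote tissue 2 of 7 were higher (median 0.36), near the 20.7% of all genes. Rpe, Pgd and Tkt rose by 1.11 ± 0.18, 0.90 ± 0.14 and 0.78 ± 0.21 in infarct (adjusted p = 8.90e-07, 8.22e-07 and 0.00162), and Pgd and H6pd by 0.50 ± 0.14 and 0.36 ± 0.10 in remote tissue (adjusted p = 0.00466 and 0.00429). Rpe averaged 82.8 in sham, under the dim limit, against 232 in infarct.

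Of 15 genes of the hypoxia response outside glycolysis, 5 were higher and 5 lower in infarct at 1 week (median -0.05), near the 34.9% and 25.7% of all genes, and 2 were higher and 4 lower in remote tissue (median 0.19). At 24 h, 6 were higher and 3 lower in infarct, against 18.6% and 24% of all genes. At 48 h, 6 were higher and 2 lower, against 25.1% and 25.8% of all genes. Hif1a, the oxygen-regulated HIF subunit, read 7545, 7212 and 6178 in infarct at 48 h, against 2324, 2490.3 and 2862 in sham. Its transcript rose in infarct by 0.54 ± 0.14 at 4 h, 1.22 ± 0.14 at 24 h, 1.43 ± 0.14 at 48 h, 1.29 ± 0.14 at 1 week and 0.79 ± 0.14 at 8 weeks (limma, adjusted p at most 0.00599). In remote tissue it rose by 0.61 ± 0.14 at 4 h, 0.60 ± 0.14 at 24 h and 0.67 ± 0.14 at 1 week (adjusted p = 0.00645, 0.00403 and 0.00012). Vegfa, the vessel growth factor, Egln1, an oxygen-sensing prolyl hydroxylase, and Epas1, a second HIF subunit, were lower in infarct at 1 week (-2.46 ± 0.32, -2.63 ± 0.17 and -1.56 ± 0.27, adjusted p = 1.14e-08, 4.92e-16 and 2.98e-06). Edn1, encoding endothelin, and Vhl, which marks HIF for breakdown, were higher (1.34 ± 0.28 and 0.86 ± 0.36, adjusted p = 5.48e-05 and 0.0367). In remote tissue at that time Edn1 was higher (0.79 ± 0.28, adjusted p = 0.0216) and Egln1 and Epas1 lower (-1.09 ± 0.17 and -0.91 ± 0.27, adjusted p = 3.81e-06 and 0.00608).

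**Figure D4:**
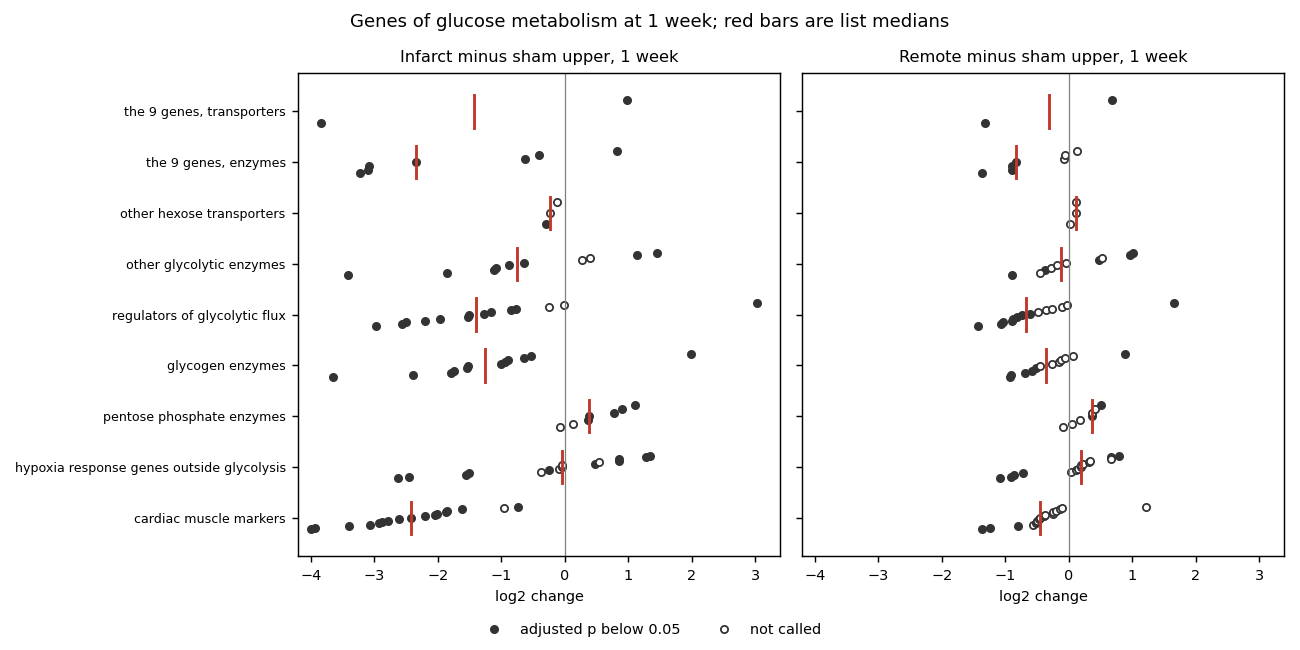
Log2 change against sham at 1 week (horizontal axis) of each tested gene of the lists named on the left, for infarct (left panel) and remote tissue (right panel), with filled points at an adjusted p under 0.05 and a red bar at each list's median. In infarct the medians of the glycogen enzymes (-1.26) and the regulators of flux (-1.39) lie below 0, those of the cardiac muscle markers at -2.42, and that of the pentose phosphate enzymes at 0.38.

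A second, dim probe set exists for Hk2, Ldhb and Slc2a4. Their mean intensities over 59 arrays were 6.09, 15 and 54.3, and they reached the dim limit of 108.2 on 0, 0 and 1 arrays. None of these 3 probe sets was called in any comparison, the lowest adjusted p being 0.0568, so they neither repeat nor contradict the values of the bright probe sets.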

How the data were processed

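The deposited values are array intensities on a linear scale (0 to 35489), which the authors had scaled: from the values, the mean of each array without its lowest and highest 2% was 499.2 to 499.9. The scaling software was not stated. Probe sets were named from the platform annotation given with the series, and 10833 of 12488 had exactly 1 gene; control probe sets (66), those with several genes (396) and those with none (1193) were not tested. For each gene the probe set with the highest mean was kept if it reached 108.2, the 40th percentile, on at least 3 arrays. Values were analysed as log2(intensity + 45.6), the offset being 0.25 times the median of all values, with limma 3.58.1 in R 4.3.3: 23 groups of region and time, the title number as a random block (consensus correlation 0.15) and Benjamini-Hochberg adjustment over 6670 genes. Precision is limited by the 3 arrays per group, with a median standard error of 0.18 in comparisons with sham and of 0.16 between infarct and remote tissue. Array medians were 157 to 214. Ratios of paired genes were tested by exact permutation in Python 3.11.15, and figures were drawn with matplotlib 3.10.9. The fits were tested on simulated data.

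The genes and the lists around them were chosen with earlier results of these data known. Of each list, the text names the 3 largest called rises and falls in infarct and the 2 largest in remote tissue at the time with the most calls, with Pgam2, Pdk4, Hif1a and Gapdh named whatever their result. Alternatives covered the offset, quantile normalization, the dim filter, all probe sets, the block, the arrays in the fit, the sham regions and single arrays left out.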

Additional observations from a re-analysis of the deposited data

Results flagged for a closer look

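The infarct minus sham change differed between the 6 times for 8 of the 9 genes in limma's F test over the 5 differences between times. The adjusted p was 3.4e-10 for Slc2a1, 6.3e-10 for Slc2a4, 2.9e-09 for Hk2, 5.5e-10 for Pfkm, 0.00013 for Pgk1, 0.0011 for Ldha, 7.6e-08 for Ldhb and 1.3e-07 for Eno3. The test does not say which times differ. The change of Slc2a1 was largest at 24 h, at 2.82, and those of Slc2a4, Hk2, Pfkm, Ldha, Ldhb and Eno3 were lowest at 1 week. Pgk1 changed direction, at 0.47 at 24 h and -0.41 at 1 week.

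The remote minus sham change differed between times for Slc2a1 (adjusted p = 0.002), which was lower at 1 h (-1.22) and higher at 1 week (0.68). It also differed for Hk2 (adjusted p = 0.045) and Ldhb (adjusted p = 0.031), which were lowest at 1 week, with changes of -0.89 and -1.37. The count of 3 genes was 1 under quantile normalization, 2 with an offset of 0.05 times the median of all values or with no filter on dim genes, and 1 to 3 without single arrays.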

How the results depend on the processing

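No called result of the 9 genes reversed under any alternative run. Values that were not called did change sign, counted here over the 9 genes and the genes named outside them. These were 12 of 240 under quantile normalization and 55 of 1431 with single arrays left out. With the sham regions together 4 of 177 did. With an offset of 0.05 times the median of all values 1 did, and with the fixed block 1. The calls of infarct against sham numbered 25 to 31 when single arrays were left out, 23 under quantile normalization and 27 in fits of only the groups compared, beside 30 as reported. Those of remote against sham numbered 6 to 7, 5 and 6, beside 7, and those of infarct against remote 15 to 20, 19 and 15, beside 18. The count of the 9 genes whose remote change differed between times was 3 as reported, 1 under quantile normalization, 2 with that offset or with no filter on dim genes, 4 with an offset of 1 times the median and 1 to 3 without single arrays, being 1 without the second sham or the first remote array of 1 h, the second or the third sham array of 1 week or the third remote array of 1 week. The cause was not tested.

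With the dim second probe set of Slc2a4, Hk2 or Ldhb in place of the bright one, the mean difference of the Slc2a1 to Slc2a4 ratio in remote tissue was 0.11, that of Hk1 to Hk2 in remote tissue 0.13, and that of Ldha to Ldhb 0.068 in infarct and 0.057 in remote tissue, each with an adjusted p of 0.52 in the exact permutation test. The Ldha to Ldhb difference in remote tissue was 0.22 to 0.29 without single arrays, with adjusted p up to 0.0609. Those second probe sets lie under the dim limit on nearly all arrays.

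Title numbers are shared by 17 infarct and remote samples, and the deviations of such pairs from their group means correlated between -0.10 and 0.42, not all above 0.1, so the number was kept as a random block. With no replicate block the counts were 30, 7 and 17, and with a fixed replicate block over the infarct and remote arrays 17 for infarct against remote.

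At 1 week the median change over all genes was -0.07 in infarct and -0.06 in remote tissue under quantile normalization, beside 0.11 and 0.05 as reported. This setting ended the calls of infarct against sham for Ldhb and Eno3 at 24 h, Hk2 at 48 h, Pgk1 and Ldha at 1 week and Pfkm, Ldha and Eno3 at 8 weeks, and that of Pgk1 at 1 week for infarct against remote tissue, and it added calls for Ldha at 48 h (0.38 in infarct against sham, 0.33 against remote tissue) and for Pgk1 at 48 h against remote tissue (0.44). In fits of only the groups compared, the calls of Pgk1 at 24 h and 1 week, of Hk1 at 1 week and of Slc2a4 at 8 weeks were lost for infarct against remote tissue. Of the genes outside the 9, quantile normalization ended the calls in infarct of Slc2a3 at 24 h and Vhl at 1 week, and those in remote tissue of Pgam2, Tpi1 and Edn1 at 1 week. Fits of only the groups compared ended those in remote tissue of Pdk4 and Hif1a at 24 h and of Tpi1, H6pd, Edn1 and Epas1 at 1 week, and that of Hif1a in infarct at 8 weeks.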
